A study of Homo sapiens with 4 samples.

Results

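Transcripts of BCL2 family apoptosis regulators were measured in the human cell line MDA-MB-468, established from a triple-negative breast cancer, after depletion of SASH1, using RNA-seq. The family was taken as 10 genes chosen by name, namely BCL2, BCL2L1, MCL1, BAX, BAK1, BID, BIK, BMF, BCL2L11 and PMAIP1. All 10 were found by Ensembl identifier among the 26518 genes of the deposited table, and all 10 were abundant enough to be tested, as were 14458 genes in total. The shSASH1 group consisted of 2 libraries from cells infected with a lentivirus whose hairpin targets SASH1, an adaptor protein with SH3 and SAM domains. The shControl group consisted of 2 libraries from cells carrying the control lentivirus pGIPZ-CTRL. Both kinds of cells were puromycin-selected stable clones. The labels do not say how many clones or hairpins each group represents, or whether replicates came from separate cultures, so p-values describe only the spread between these libraries, which may be technical. SASH1 itself stood at 3.65 and 4.01 TPM in shSASH1, against 15 and 13 TPM in shControl (log2 change -1.63 ± 0.13 SE, limma adjusted p = 0.00391).

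Read numbers rebuilt from the deposited values came to between 19527899 and 24361473 per library. The summed level of 8 epithelial and basal breast markers was 6993 to 8239 TPM in shSASH1 and 7382 to 7526 TPM in shControl. Within that list EGFR, the epidermal growth factor receptor, was at 2191 and 2203 TPM in shSASH1 and 1169 and 1075 TPM in shControl and was the one gene called (log2 change 0.97, limma adjusted p = 0.0034). KRT19, KRT18, CDH1 and EPCAM lay lower in both shSASH1 libraries without a call, and KRT5, KRT8 and KRT17 overlapped. Of the hormone receptors usually low in triple-negative cells, PGR was at most 0.0248 TPM, and ESR1 was detected in every library, at 2.79 and 3.64 TPM in shSASH1 and 2.58 and 2.29 TPM in shControl (not called). Of 6 fibroblast markers 5 stayed below 1 TPM in every library, and the list summed to 9.18 and 11 TPM in shSASH1 and 7.12 and 6.34 TPM in shControl, nearly all of it COL1A1. The leukocyte list of 5 genes summed to 44.2 and 102 TPM in shSASH1 and to 40.6 and 47.2 TPM in shControl. That sum was mostly CD14, while the defining leukocyte gene PTPRC did not exceed 0.104 TPM in any library. The endothelial list of 4 genes summed to 3.08 to 3.91 TPM in shSASH1 and 3.66 to 3.96 TPM in shControl. These are bulk values, in which fewer cells of a type and less RNA per cell cannot be told apart.

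BCL2 family proteins decide whether the outer mitochondrial membrane is opened in the intrinsic pathway of apoptosis. The effectors BAX and BAK1 form the pores that release cytochrome c, the antiapoptotic members BCL2, BCL2L1 (BCL-xL) and MCL1 hold them in check, and BH3-only proteins such as BID, BIM (BCL2L11), NOXA (PMAIP1), BIK and BMF either engage the effectors or occupy the antiapoptotic proteins. Much of this control takes place on protein stability, splicing and localization, and transcript levels per gene do not show it.

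In cells depleted of SASH1, MCL1, PMAIP1 and BAK1 were higher and BIK was lower, and the other 6 members did not pass the test. MCL1 stood out in level and in size of change, at 1.82 times its control mean. Values are TPM, a level per gene length that is scaled within each library, and log2 changes are differences of log2(TPM + 1), shSASH1 minus shControl. A gene was called at a limma p of at most 0.05 after Benjamini-Hochberg adjustment over all 14458 genes. Of the 10 members 4 were called, beside 32.0% of all tested genes. By direction 3 were higher, beside 18.8% of all genes, and 1 was lower, beside 13.3%. The members' share is close to that of the transcriptome, so the family as a list did not stand out from it. Their median log2 change was 0.21, beside 0.06 over all tested genes. Over all genes 2712 were higher and 1918 lower, a balance that turned to 2280 higher and 2434 lower after quantile normalization and to 2540 higher and 2813 lower with voom on rebuilt reads; the 4 called members passed in both. Values of the groups did not overlap for 8 of 10 members, beside 73.6% of all genes. Without shControl replicate 1 or without shControl replicate 2 no member and no other gene passed limma's threshold, since the spread then came from the shSASH1 pair alone. At an unadjusted p under 0.05 there were still 3 members higher and 1 lower in each case, and 2117 genes higher and 1329 lower without shControl replicate 1, and 1999 and 1327 without shControl replicate 2. The 4 log2 changes themselves moved little in these settings, to between 0.82 and 0.89 for MCL1, 0.50 and 0.53 for PMAIP1, 0.34 in both cases for BAK1 and -0.47 and -0.45 for BIK. With 1 shSASH1 library left out the spread comes from the closer shControl pair alone, and calls over all genes came to 4543 higher and 3185 lower without shSASH1 replicate 1 and to 3276 and 2612 without shSASH1 replicate 2. A member that passes only in such a fit is therefore given below as a value and not as a call. With no filter on low values, which adds genes near 0 to the variance fit and to the adjustment, BAK1 was the only member called. In that fit the SE of BAK1 was 0.02, against 0.05 in the main fit, and MCL1 had a limma adjusted p of 0.06.

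**Figure D1:**
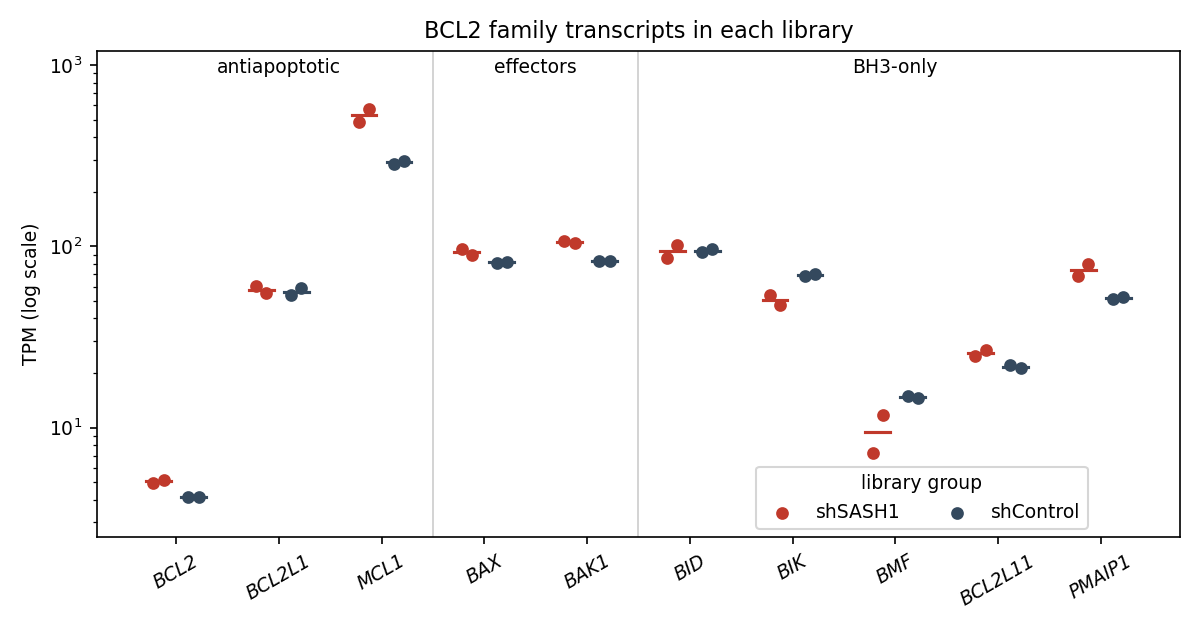
TPM (log axis) of the 10 members in each library, with shSASH1 in red left of shControl in dark blue; points are single libraries and bars their means of 2. MCL1 lay above every other member in all 4 libraries, and BCL2 lay lowest.

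RefSeq start-site windows (GRCh38.p14) were at hand for 8 of the 10 members. The 150 bases before the start site are shown for PMAIP1 and BAK1, the called members with a window, because both rose and their upstream letters can be set side by side. MCL1 and BIK had no entry. Capitals mark motif matches on either strand, and positions count back from the base before the RefSeq start site at -1. The gene coordinates in the text are from GENCODE, where PMAIP1 begins at 59899948 and BAK1, on the minus strand, at 33580293. The last bases of both stretches therefore lie inside the genes as GENCODE places them.
PMAIP1, chr18:59899846-59899995, plus strand: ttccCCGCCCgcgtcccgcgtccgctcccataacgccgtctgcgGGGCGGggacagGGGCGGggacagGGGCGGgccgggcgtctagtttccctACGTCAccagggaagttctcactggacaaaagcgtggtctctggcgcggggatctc
BAK1, chr6:33580277-33580426, minus strand: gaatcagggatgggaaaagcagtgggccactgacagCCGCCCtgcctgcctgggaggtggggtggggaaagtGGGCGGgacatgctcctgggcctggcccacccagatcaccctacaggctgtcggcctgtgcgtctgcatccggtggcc
The PMAIP1 stretch held 4 matches to the GC box GGGCGG, a motif present in 42.5% of 34943 windows of 250 bases, and 1 match to the CRE core TGACGT, the binding motif of CREB and ATF factors, from -56 to -51 on the minus strand. The CRE core was present in 7.09% of windows. The BAK1 stretch held 2 GC boxes. Further up, the 250-base BAK1 window held 1 CCAAT box, which occurs in 32% of windows. A match describes letters only, and binding was not measured.

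Among the antiapoptotic members, MCL1 rose while the levels of BCL2L1 and BCL2 were not separated by the test. MCL1 (chromosome 1, 150574551 to 150579738, hg38, minus strand) encodes a short-lived guardian that binds BAK1, BIM and NOXA. It stood at 487 and 570.5 TPM in the shSASH1 libraries, against 285 and 297 TPM in the shControl libraries. Both depleted libraries lay far above both controls, with replicate 2 the higher of the depleted pair. The log2 change was 0.85 ± 0.09 (SE, 95% interval 0.61 to 1.1, limma adjusted p = 0.00651), and 14.2% of tested genes had a larger absolute change. The values rest on 13033 to 13963 rebuilt reads in shSASH1 and 7295 to 8920 in shControl.

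BCL2L1 (chromosome 20, 31664452 to 31723989) encodes BCL-xL, another guardian of BAX and BAK1. It was at 60.1 and 55.5 TPM in shSASH1 and at 53.6 and 58.9 TPM in shControl. The groups overlapped, and the log2 change was 0.04 with a 95% interval from -0.18 to 0.26 (adjusted p = 0.734). Its sign was negative under median-of-ratios scaling, quantile normalization and voom. An antisense gene, ABALON, covers 43% of the exon bases of BCL2L1 but was listed at no more than 1 TPM. The long and short BCL2L1 splice forms, which act in opposite ways, are summed in this value.

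BCL2 (chromosome 18, 63123346 to 63320128), the founding member of the family, was the least abundant of the 10. It was at 4.96 and 5.14 TPM in shSASH1 and at 4.16 and 4.15 TPM in shControl. Both depleted libraries lay above both controls, but the change was not called (log2 change 0.23, 95% interval -0.13 to 0.59, adjusted p = 0.243). It rests on 316 and 383 rebuilt reads in shSASH1 and on 287 and 335 in shControl.

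Both effector genes lay higher in every depleted library than in any control library, as did 41.3% of all tested genes, and BAK1 was called. BAK1 (chromosome 6, 33572547 to 33580293, minus strand), a resident of the outer mitochondrial membrane, was at 107 and 104 TPM in shSASH1 and at 83.2 and 83.3 TPM in shControl. Its replicates were close together in each group, and its log2 change of 0.34 ± 0.05 (SE) had a limma adjusted p of 0.0151. The change was modest, and 46.5% of tested genes had a larger one. Pseudogene copies of BAK1 are annotated and were not analysed here, so the way reads were shared with them is unknown.

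BAX (chromosome 19, 48954815 to 48961798, plus strand), which moves from the cytosol to mitochondria when activated, was at 96.5 and 89.7 TPM in shSASH1 and at 81.3 and 82.3 TPM in shControl. The groups did not overlap, but the change was not called (log2 change 0.18, 95% interval 0.01 to 0.35, adjusted p = 0.0936). Without shSASH1 replicate 2, where the spread is that of the shControl pair alone, the value was 0.24 (adjusted p = 0.0222). BAK1 and BAX were nearly equal in the controls, with a BAK1 to BAX ratio of TPM of 1.11 and 1.16 in shSASH1 and 1.02 and 1.01 in shControl. The 250 bases before the RefSeq start site of BAX held 4 copies of the E-box CACGTG, which is found in 6.32% of windows. The last of these bases lie inside the gene coordinates given above.

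The BH3-only genes went in both directions, with PMAIP1 higher, BIK lower and the remaining 3 not called. PMAIP1 (chromosome 18, 59899948 to 59904306, plus strand) encodes NOXA, which binds MCL1 with preference and promotes its degradation. It was at 68.8 and 80.2 TPM in shSASH1 and at 51.2 and 52.3 TPM in shControl. As for MCL1, both depleted libraries were above both controls and replicate 2 was the higher of the pair. The log2 change was 0.51 ± 0.09 (SE, limma adjusted p = 0.0197), a ratio of means of 1.44.

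BIK (chromosome 22, 43110748 to 43129712, plus strand) encodes a BH3-only protein of the endoplasmic reticulum. It fell to 53.8 and 47.2 TPM in shSASH1, against 69 and 70.3 TPM in shControl. The groups did not overlap, and the log2 change was -0.46 ± 0.09 (SE, limma adjusted p = 0.0209). These levels rest on 235 and 336 rebuilt reads in shSASH1 and on 385 and 460 in shControl, so counting error is larger here than for MCL1.

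BMF (chromosome 15, 40087890 to 40108892, minus strand), which is held on the actin-bound myosin V motor through a dynein light chain, differed most between the depleted libraries. It was at 7.22 and 11.8 TPM in shSASH1 and at 15 and 14.6 TPM in shControl. Both depleted libraries lay below both controls, yet the gap between them left the change uncalled, at -0.62 ± 0.23 (SE, adjusted p = 0.108). With voom on rebuilt reads, which keeps all 4 libraries, it passed at -0.79 (adjusted p = 0.0343). Leaving out a shSASH1 library removes that gap from the spread, and the value was then -0.30 without replicate 1 (adjusted p = 0.0495) and -0.94 without replicate 2 (adjusted p = 0.00998). An antisense gene overlaps 8.5% of its exon bases and was not analysed here.

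BCL2L11 (chromosome 2, 111119378 to 111168447, plus strand) encodes BIM, a BH3-only protein that binds all the antiapoptotic members and is held in check by ERK signalling. It was at 24.9 and 26.9 TPM in shSASH1 and at 22.2 and 21.2 TPM in shControl. The groups did not overlap, but the change was not called (log2 change 0.25, 95% interval 0.02 to 0.47, adjusted p = 0.0871). Without shSASH1 replicate 1, where the spread is that of the shControl pair alone, the value was 0.30 (adjusted p = 0.0348). The noncoding gene MIR4435-2HG on the opposite strand shares 10.9% of the BCL2L11 exon bases and was at 19 and 13.9 TPM in shSASH1 and 11.2 and 11.1 TPM in shControl; whether strand was used in counting is not given in the sources used here, and its part in the BCL2L11 value was not tested. The 250 bases before the RefSeq start site of BCL2L11 held 1 FOXO site GTAAACA, present in 2.98% of windows, from -223 to -217. These bases lie inside the gene coordinates given above.

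BID (chromosome 22, 17734138 to 17774770, minus strand), which caspase-8 cleaves to link death receptors to mitochondria, was at 86.3 and 102 TPM in shSASH1 and at 92.6 and 96.9 TPM in shControl. The depleted libraries lay on either side of the controls. The log2 change was -0.02, with a 95% interval from -0.27 to 0.24 (adjusted p = 0.913).

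**Figure D2:**
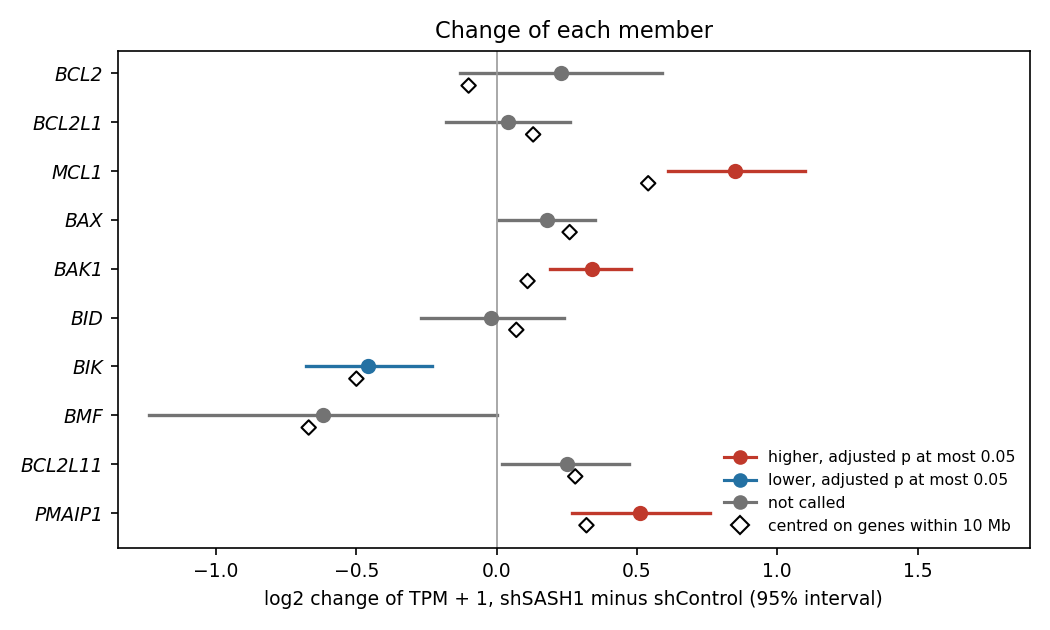
Log2 change of TPM + 1 (shSASH1 minus shControl) of each member, with circles for the estimate, lines for the 95% interval of limma and diamonds for the estimate after centring on genes within 10 Mb. MCL1 (0.85), PMAIP1 (0.51), BAK1 (0.34) and BIK (-0.46) were called, and after centring MCL1 (0.54) and BIK (-0.50) passed.

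The order of levels differed between the groups in its middle. By group mean, MCL1 was first (529 TPM in shSASH1 and 291 TPM in shControl) and BCL2L11, BMF and BCL2 were the 3 least abundant, in that order, in both groups. In shSASH1 cells BAK1 (106 TPM), BID (94 TPM), BAX (93.1 TPM), PMAIP1 (74.5 TPM), BCL2L1 (57.8 TPM) and BIK (50.5 TPM) followed MCL1 in that order. In shControl cells the order was BID (94.8 TPM), BAK1 (83.3 TPM), BAX (81.8 TPM), BIK (69.7 TPM), BCL2L1 (56.2 TPM) and PMAIP1 (51.7 TPM). PMAIP1 and BIK thus changed places around BCL2L1. In shSASH1 BID and BAX overlapped in their libraries and were not separated, and in shControl the closest neighbours were BAK1 (SD 0.0352 TPM) and BAX (SD 0.656 TPM), whose libraries did not overlap.

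Summed by role, the antiapoptotic transcripts came to 552 and 631 TPM in shSASH1 and to 343 and 360.5 TPM in shControl, a ratio of means of 1.68. The effectors summed to 203 and 194 TPM in shSASH1 and to 165 and 166 TPM in shControl, a ratio of 1.2. The BH3-only sum was nearly level, at 241 and 268 TPM in shSASH1 and 250.0 and 255 TPM in shControl. These sums are descriptions with no test, and they weight each gene by its transcripts, not by protein. They leave out family genes outside the 10, so the sums and the shares below depend on that choice. Left out were the guardian BCL2L2 (mean 67.4 TPM in shSASH1 and 45 TPM in shControl) and the BH3-only genes BBC3 (16.5 and 7.82 TPM), HRK (7.19 and 5.25 TPM) and BAD (11.3 and 13.2 TPM), among others.

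The make-up of those sums differed between the groups too, again as a description. MCL1 took 88.2% and 90.4% of the antiapoptotic sum in shSASH1 and 83.2% and 82.5% in shControl. PMAIP1 took 28.5% and 29.9% of the BH3-only sum in shSASH1, against 20.5% in each shControl library. BIK took 22.3% and 17.6% of it in shSASH1, against 27.6% and 27.5% in shControl, while BID stayed at 35.8% to 38% in shSASH1 and 37% to 38% in shControl. There were 7.08 and 7.11 MCL1 transcripts per PMAIP1 transcript in shSASH1, against 5.57 and 5.69 in shControl. The antiapoptotic sum was 2.29 and 2.36 times the BH3-only sum in shSASH1 and 1.37 and 1.41 times that sum in shControl.

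**Figure D3:**
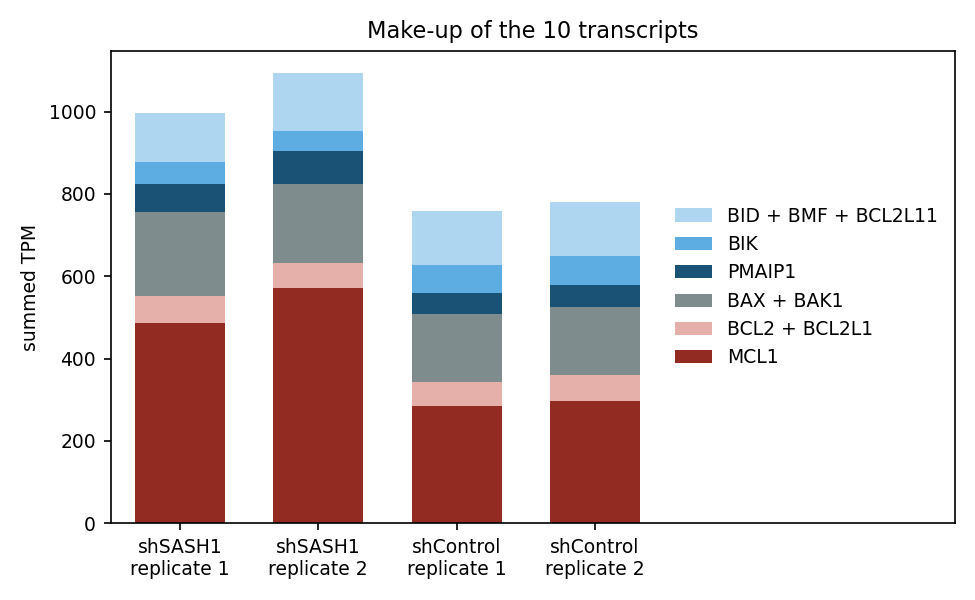
Summed TPM of the 10 members in each library, stacked by gene or role, with the shSASH1 libraries left of the shControl libraries. The MCL1 block was 487 and 570.5 TPM in shSASH1 and 285 and 297 TPM in shControl, while the BH3-only blocks together stayed between 241 and 268 TPM.

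Around several members the tested neighbours had a higher median log2 change than the 0.06 of all tested genes, though neighbours went in both directions. Changes of members were therefore also measured against neighbours within 10 Mb on either side. Around MCL1 242 tested genes had a median log2 change of 0.34. Of them 33.5% were called higher, beside 18.8% of all tested genes, and 18 were called lower. MCL1 exceeded 90.5% of these neighbours, and centred on them its change was 0.54 ± 0.09 (SE, limma adjusted p = 0.0226). The 311 neighbours of BAK1 on chromosome 6 had a median of 0.22, and the centred change of BAK1 was 0.11 (adjusted p = 0.289), so its call was lost. PMAIP1 had 36 neighbours with a median of 0.22, and its centred change of 0.32 missed the threshold (adjusted p = 0.0631). BIK, among 206 neighbours with a median of 0.03, kept its call at -0.50 (adjusted p = 0.0361), and 11.2% of its neighbours lay below it. BCL2, whose 30 neighbours had a median of 0.36, had a centred change of -0.10 (adjusted p = 0.606). DNA copy number was not measured, and its part in these values was not tested.

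**Figure D4:**
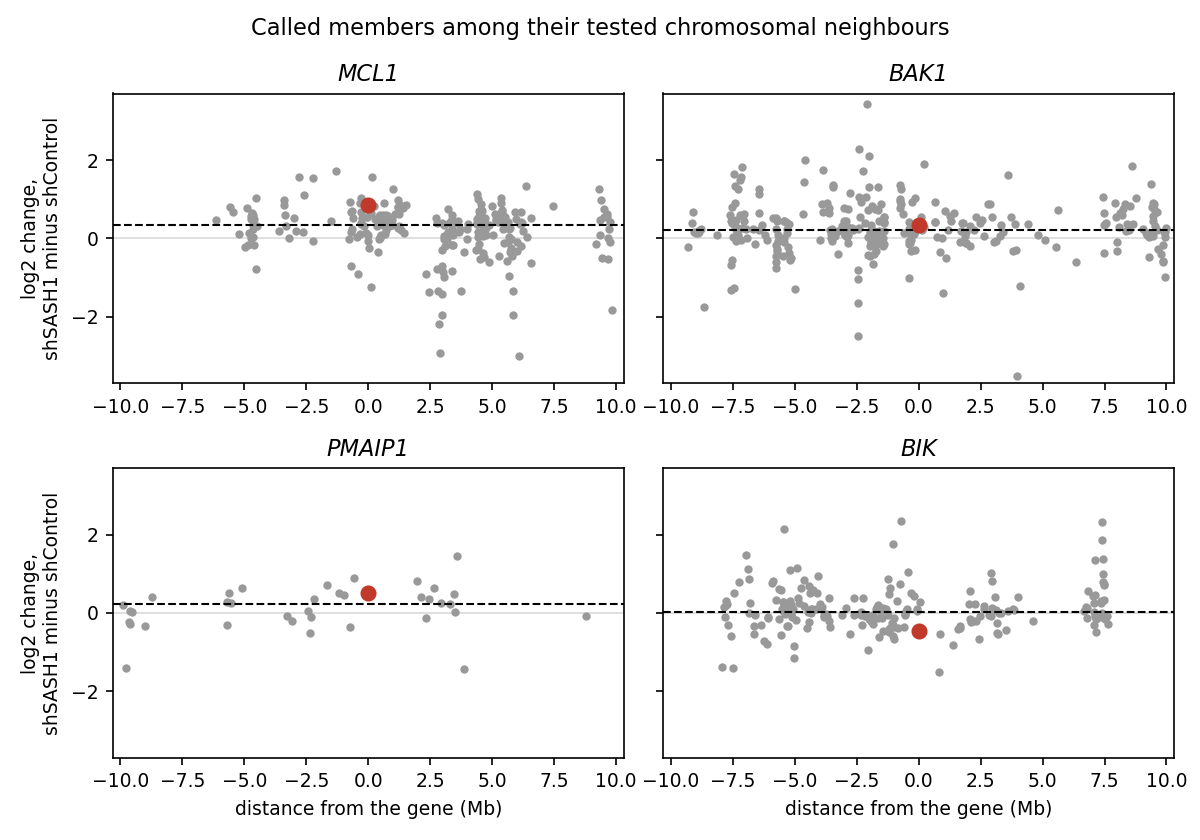
Log2 change (shSASH1 minus shControl) of tested genes within 10 Mb of each called member against their distance in Mb, with the member in red and the neighbours' median dashed. BAK1 lay near its neighbours' median of 0.22, MCL1 (0.85) above its median of 0.34 and BIK (-0.46) below its median of 0.03.

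The 5 genes whose centred log2 profile over the 4 libraries was closest to that of MCL1, among 11279 genes of at least 5 TPM, were PRKAB2, AGRN, IGF2BP3, TM4SF1 and C1orf52. PRKAB2, on chromosome 1 and among the neighbours within 10 Mb of MCL1 described above, was the closest with a Euclidean distance of 0.0224. PRKAB2 was at 48.5 and 56.7 TPM in shSASH1 and 28.4 and 29.1 TPM in shControl. Distances of the other 4 were between 0.0304 and 0.0481. With 4 libraries many genes have like profiles.

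Of the remaining BCL2 family genes, 13 were listed and 10 tested, with 2 called higher and 1 lower and a median log2 change of 0.17. Among all tested genes 18.8% were called higher and 13.3% lower. After centring on neighbours 3 of the list were higher and 1 lower, beside 1921 and 1704 of all 14458 genes. BBC3, the BH3-only gene for PUMA, rose to 14.5 and 18.4 TPM in shSASH1, against 7.94 and 7.7 TPM in shControl (log2 change 0.98, limma adjusted p = 0.0122). BCL2L2, the gene for the guardian BCL-w, rose to 66.3 and 68.4 TPM in shSASH1, against 44.6 and 45.4 TPM in shControl (0.57, adjusted p = 0.00618). BCL2L2 shares 19.4% of its exon bases with the read-through gene BCL2L2-PABPN1, which was listed at 1.23 TPM or less. BNIP3, a mitophagy receptor with a BH3-like stretch, fell to 19.1 and 17.7 TPM in shSASH1, against 26.2 and 24.7 TPM in shControl (-0.45, adjusted p = 0.0233; -0.28 and 0.0608 when centred). The abundant BCL2L12 (107 TPM in shSASH1 and 106 TPM in shControl) and the effector relative BOK (49.4 TPM in shSASH1 and 48.9 TPM in shControl) had log2 changes of 0.02 and 0.01 and were not called. The neighbours of BOK had a median of 0.52, and centred on them BOK passed as lower (-0.53, limma adjusted p = 0.0266). BCL2L12 shares 33.1% of its exon bases with IRF3 on the other strand. IRF3 was at 92.17 and 105.49 TPM in shSASH1 and 95.81 and 99.4 TPM in shControl, and its part in the BCL2L12 value was not tested. The guardian BCL2A1 was listed at 0 in both shSASH1 libraries and at 0.408 and 0 TPM in shControl.

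Downstream of the mitochondria, 14 of 15 listed apoptosome, caspase and IAP genes were tested. Of these 4 were higher and 3 lower (median log2 change 0.05), beside 18.8% and 13.3% of all tested genes. Centred on neighbours 1 was higher and 4 lower, beside 1921 and 1704 of all 14458 genes. DIABLO was not analysed here. The inhibitor of apoptosis BIRC3 had by far the widest difference of this list, at 45.4 and 87.9 TPM in shSASH1 and 6.99 and 6.47 TPM in shControl (3.06, limma adjusted p = 0.00605). Its relative BIRC2, the neighbouring gene, stood at 86.5 and 101 TPM in shSASH1 and 64 and 64.3 TPM in shControl (0.54, adjusted p = 0.0173; 0.31 and 0.052 when centred). XIAP, which blocks caspases directly, was at 67.8 and 73.5 TPM in shSASH1 and 42.8 and 44 TPM in shControl (0.69, adjusted p = 0.00591), but its neighbours on chromosome X had a median of 0.52 and its centred change was 0.14 (adjusted p = 0.298). The mitochondrial nuclease ENDOG fell by 0.60 (adjusted p = 0.0118). The 3 further called genes, named after their values were seen, were CYCS, the gene for cytochrome c (-0.37, with 255 and 225 TPM in shSASH1 and 311 and 308 TPM in shControl), the protease HTRA2 (-0.34) and AIFM1 (0.26). The AIFM1 change turned to -0.23 when centred on its neighbours and then just passed as lower (limma adjusted p = 0.0498). HTRA2 overlaps the abundant gene AUP1 on the other strand in 16.1% of its exon bases. BIRC5 (180.0 TPM in shSASH1 and 223 TPM in shControl, -0.32) was not called.

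Among 11 binding partners and turnover factors 4 were lower and 1 higher (median log2 change -0.08), beside 13.3% and 18.8% of all tested genes. Centred on neighbours 2 were lower and 1 higher, beside 1704 and 1921 of all 14458 genes. HUWE1, a ubiquitin ligase that marks MCL1 for degradation, fell to 101 and 97.9 TPM in shSASH1, against 169.6 and 159 TPM in shControl (-0.72, limma adjusted p = 0.0043). USP9X, a deubiquitinase that stabilizes MCL1, fell to 41.3 and 41.7 TPM in shSASH1, against 74.3 and 70.1 TPM in shControl (-0.78, adjusted p = 0.004). Both lie on the short arm of chromosome X, where neighbours had medians of -0.91 around HUWE1 and -0.81 around USP9X. Centred on these neighbours HUWE1 had a change of 0.18 and USP9X of 0.07, and neither passed (adjusted p = 0.124 and 0.446). DYNLL1, the dynein light chain that binds BIM, fell to 145 and 106 TPM in shSASH1, against 197 and 209 TPM in shControl (-0.71, adjusted p = 0.0349). YWHAZ, an adaptor that retains phosphorylated BAD in the cytosol, fell by 0.70 (adjusted p = 0.00511). The only higher gene of the list, named after its value was seen, was GSK3B, a kinase that primes MCL1 for degradation, at 80.3 and 77.4 TPM in shSASH1 and 51.9 and 50.8 TPM in shControl (0.61, adjusted p = 0.00552). VDAC1 (-0.08) and VDAC2 (0.10), mitochondrial channels of which VDAC2 binds BAK1, were not called.

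Of 11 transcription factors known to act on BCL2 family genes 5 were higher and 0 lower in limma (median log2 change 0.31), beside 18.8% of all genes higher and 13.3% lower. At an unadjusted p under 0.05, 1 was lower, namely ATF4 (-0.21, unadjusted p = 0.031, adjusted p = 0.0775). With median-of-ratios scaling or quantile normalization 3 were higher and 0 lower, and with voom on rebuilt reads 3 were higher and 2 lower, with ATF4 and TP73 the lower ones. With no variance trend 2 were higher and 0 lower, and with no filter on low values 1 was higher and 0 lower. With a pseudocount of 0.1, a mean of at least 5 TPM or robust eBayes 5 were higher and 0 lower. Centred on neighbours 6 were higher and 0 lower, so the count depends on the setting. FOXO1, of a factor family that can drive BIM and PUMA transcription, rose to 15.8 and 17.8 TPM in shSASH1, against 6.85 and 7.33 TPM in shControl (1.13, adjusted p = 0.00569). STAT3, a known activator of MCL1, rose to 169 and 208 TPM in shSASH1, against 115 and 111 TPM in shControl (0.73, adjusted p = 0.0138). DDIT3, the stress factor CHOP, had a log2 change of 0.51 (adjusted p = 0.0297), and 27.2% of its exon bases lie within the abundant gene MARS on the other strand. NFKB1 (0.32) and RELA (0.26), NF-kB subunits, passed as well, with RELA named after its value was seen; centred on its neighbours NFKB1 did not pass (0.10, adjusted p = 0.389). E2F1 (0.31) was not called, and centred on its neighbours it passed in limma (0.39, adjusted p = 0.0453).

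**Figure D5:**
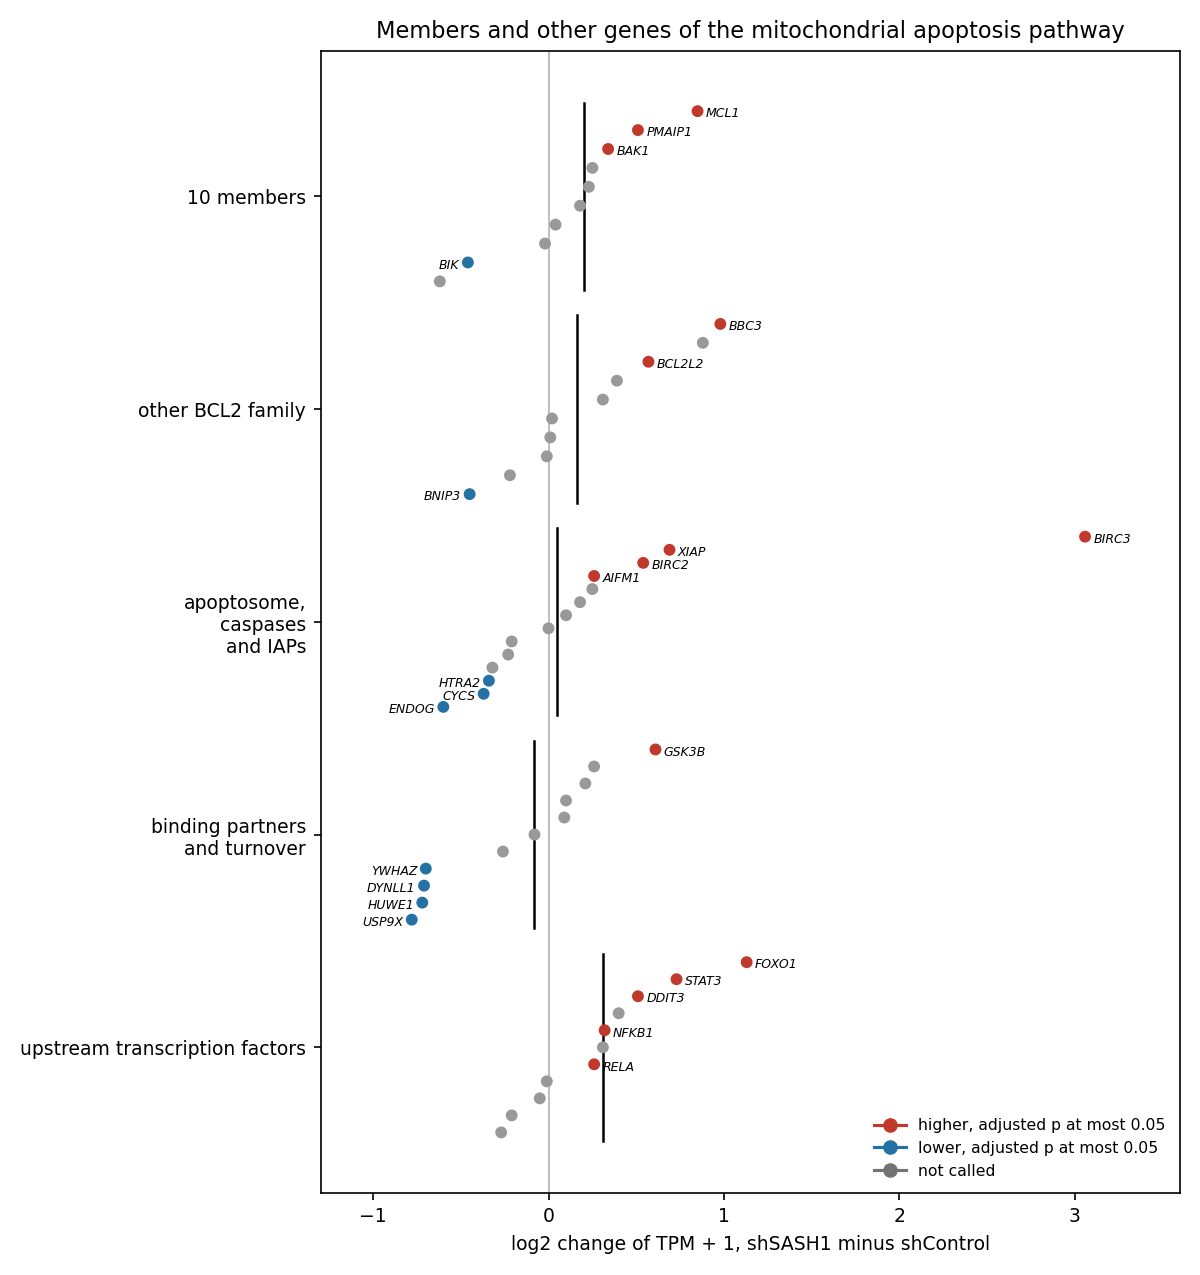
Log2 change (shSASH1 minus shControl) of the 10 members and of the tested genes of 4 pathway lists; each point is a gene, red and blue points were called higher or lower, and black lines are list medians. BIRC3 (3.06) lies farthest from 0, and the transcription factor list has 5 called genes, all of them higher in this test. That list had 3 higher and 2 lower with voom on rebuilt reads, and 1 to 6 higher in the other settings that keep all 4 libraries.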

How the data were processed

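RNA-seq values of 2 shSASH1 and 2 shControl libraries were analysed, grouped by their titles. The authors deposited 1 TPM value for each Ensembl gene and library, a level per gene length scaled to a common total. STAR, DESeq2 and hg38 are named without roles in the submitters' processing notes. How reads were counted, with which annotation and whether by strand, is not given in the sources used here. Identifiers, coordinates and exon lengths came from GENCODE release 29, in which all 26518 genes were found.

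The main test, run on genes whose mean over the libraries reached 1 TPM, was limma 3.58.1 (R 4.3.3; lmFit, then eBayes with a mean-variance trend) on log2(TPM + 1), two-sided, without a block. With 2 libraries a group, exact permutation cannot go below p = 0.333. Read numbers were rebuilt from TPM times exon length with a scale per library, and 88.7% to 89.3% of values up to 20 reads came within 0.05 of a whole number. They are estimates. On these reads replicates differed by a chi-square per degree of freedom of 25.78 in shSASH1 and 2.26 in shControl, above counting noise. Limma was also run on 5 simulated sets of this comparison, with a mean of 14315.6 genes and 200 changed. It called 46.2% of changes of 1 log2 unit and 77.7% of changes of 2 log2 units, and 3.7% of its calls were false. These percentages hold for sets with 200 changed genes, whereas 4630 of 14458 genes were called in the data. Performance with that many changed genes was not tested.

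The members, pathway lists, marker lists and settings were chosen with earlier results of these data known. All 10 members were named, then per pathway list up to 4 called genes with the largest change and up to 2 uncalled genes of highest TPM, and the 5 genes nearest to the called member with the largest change. One uncalled gene that this rule picks is not reported here. Promoter windows are from RefSeq. Motifs were searched in the 250 bases before the start site on both strands, namely the CRE core, AP-1 site, E-box, GC box, FOXO site, STAT site, CCAAT box, TEAD site, TATA box and NF-kB consensus. Python 3.11.15 with pandas 2.3.3 and matplotlib 3.10.9 served for annotation and plots.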

Additional observations from a re-analysis of the deposited data

How the results depend on the processing

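With no filter on low values 1 member was called higher (BAK1) and 0 lower, with adjusted p = 0.06 for MCL1 (0.85), 0.105 for PMAIP1 (0.51) and 0.099 for BIK (-0.46); 5 pathway genes were then higher and 5 lower, and 1199 and 1018 of all genes, of which many near 0 were added to the test. Centring on neighbours left 1 member higher (MCL1), with BAK1 at 0.11 and PMAIP1 at 0.32 not called, and gave BCL2 (-0.10) and BID (0.07) the opposite sign. With voom 2 members were lower, BMF (-0.79) joining BIK. BCL2L1 was at -0.02 with median-of-ratios scaling, -0.06 with quantile normalization and -0.03 with voom. The effector sum ratio was 1.16 with median-of-ratios scaling, against 1.2.

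With each library left out, members called higher numbered 0 to 4 and lower 0 to 2, pathway genes 0 to 18 higher and 0 to 11 lower, and all genes 0 to 4543 higher and 0 to 3185 lower; the zeros are without either shControl library. Log2 changes then ranged from 0.74 to 0.97 for MCL1, 0.40 to 0.62 for PMAIP1, 0.32 to 0.35 for BAK1, -0.55 to -0.37 for BIK, -0.94 to -0.30 for BMF, 0.19 to 0.30 for BCL2L11, 0.13 to 0.24 for BAX, 0.21 to 0.25 for BCL2, -0.03 to 0.11 for BCL2L1 and -0.13 to 0.10 for BID. The correlation of same-numbered deviations from the group mean was -0.032. With 2 libraries a group this value cannot show whether same-numbered libraries were prepared together. A replicate block changed no member's call, with 2372 genes higher and 1557 lower. Of the pathway genes 9 were then higher and 7 lower, without calls for HTRA2 (adjusted p = 0.056), AIFM1 (0.0667), RELA (0.0767) and NFKB1 (0.0992). Other settings, a pseudocount of 0.1, a mean of at least 5 TPM, no variance trend and robust eBayes, kept each member tested on its side of the threshold and its direction; BCL2, below a mean of 5 TPM, has no value under that filter. Depth limits BIK, BMF and BCL2 most, at 235 to 546 rebuilt reads a library.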
